A study of Saccharomyces cerevisiae with 15 samples.

Results

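The genes described here are the cytosolic ribosomal protein genes of the budding yeast Saccharomyces cerevisiae and their paralogs. They were taken by symbol, as the genes named RPL or RPS with a number and an optional A or B, together with the stalk genes RPP0, RPP1A, RPP1B, RPP2A and RPP2B. This gave 127 of the 5449 S. cerevisiae genes measured, with 52 genes for proteins of the small (40S) subunit, 70 for proteins of the large (60S) subunit and 5 for the stalk of the large subunit. By copy number, 18 genes were single, 100 formed 50 pairs of an A and a B gene, and 9 had a partner that was not analysed here. The RefSeq gene table of the S288C assembly R64 lists 137 such genes. The other 10 were not analysed here. A gene with more than 1 probe set was read by the one with the highest mean over the arrays.

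The study used 15 Affymetrix Yeast Genome 2.0 arrays, in 3 groups of 5 biological replicates; besides S. cerevisiae probes these arrays bear probes of the fission yeast S. pombe. Rho0 low density was the light Percoll fraction of a Rho0 form of BY4741, a strain without mitochondrial DNA that cannot respire. WT low density and WT high density were the light and the dense Percoll fraction of BY4741, a haploid laboratory strain that lacks HIS3, LEU2, MET17 and URA3 function. All cells had grown with shaking at 30 °C in YPD, rich medium with 2% glucose, were taken at day 3, and had no further treatment. No dense fraction of the Rho0 strain was among the samples, so strain and density can be compared only within the light fraction and within WT. Of 8 genes of mitochondrial DNA that would check the Rho0 label, 0 were named in the annotation used here, so the label was not checked.

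A yeast ribosome has a small subunit that reads the mRNA and a large subunit that joins amino acids. Most of its proteins come from a pair of paralogs left by an ancient duplication of the genome, and the proteins of a pair are identical or nearly so. In growing yeast their genes are transcribed together at very high rates under Rap1, Fhl1, Ifh1 and Sfp1, and they are known to be shut down together when nutrients run out or the TOR kinase is inhibited.

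Values are log2 signals that the submitters made by RMA, a method that sets all arrays to a common distribution of probe signals, so that each value measures a transcript relative to the rest of the array. A difference of 1 on this scale is a 2-fold difference. The median change over all 5449 genes was -0.17 for WT low over WT high density, 0.25 for Rho0 low over WT low density and 0.03 for Rho0 low over WT high density. The mean of the 36 poly-A spike-in probe sets, RNAs that the usual protocol adds to a sample, was 9.66 ± 0.24 in Rho0 low density, 10.34 ± 0.24 in WT low density and 10.12 ± 0.20 in WT high density (SD, n = 5 each). A probe set near the 5′ end of 25S ribosomal RNA read 7.75 ± 0.27 in Rho0 low density, 11.36 ± 0.45 in WT low density and 7.87 ± 0.13 in WT high density. In the middle of 25S the values were 13.28 ± 0.15, 14.17 ± 0.04 and 10.99 ± 0.32, and at its 3′ end 14.24 ± 0.02, 14.16 ± 0.02 and 13.94 ± 0.14 in the same order. The gap between the 3′ and 5′ probe sets of ACT1, a sign of RNA length, was 1.61 ± 0.06, 1.90 ± 0.12 and 1.57 ± 0.14 in the same order. The part of these differences in the results was not tested. Fewer cells of a type and less RNA per cell cannot be told apart in such bulk samples.

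All 127 genes exceeded the background level in at least 1 group, set at 2.56, under which 95% of the S. pombe means lay. In all 3 groups 126 exceeded it. The exception was RPL13A, which averaged 2.75 ± 0.27 in Rho0 low density, 2.44 ± 0.24 in WT low density and 3.21 ± 0.65 in WT high density. The signal averaged over the 127 genes was 8.14, 7.91, 7.93, 7.94 and 7.91 on the Rho0 low density arrays, 8.37, 8.31, 8.29, 8.21 and 8.14 on the WT low density arrays and 8.54, 8.54, 9.24, 8.90 and 8.70 on the WT high density arrays. Every WT high density array was above every array of both light fractions. The Rho0 and WT low density arrays met at 8.14, where the highest Rho0 array equalled the lowest WT array. WT high density replicate 3, at 9.24, was the highest array of all. The group with the highest mean was WT high density for 85 genes, WT low density for 28 and Rho0 low density for 14, while the lowest mean was in Rho0 low density for 78 genes, in WT low density for 33 and in WT high density for 17. RPP1A had the same lowest mean of 10.01 in Rho0 low and WT high density and counts in both. These values and orders are as deposited, and the order of the light fractions depends on the scaling of the arrays. The median change of the 127 genes in Rho0 low over WT low density was -0.29 as deposited and 0.39 after scaling to the spike-ins.

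**Figure D1:**
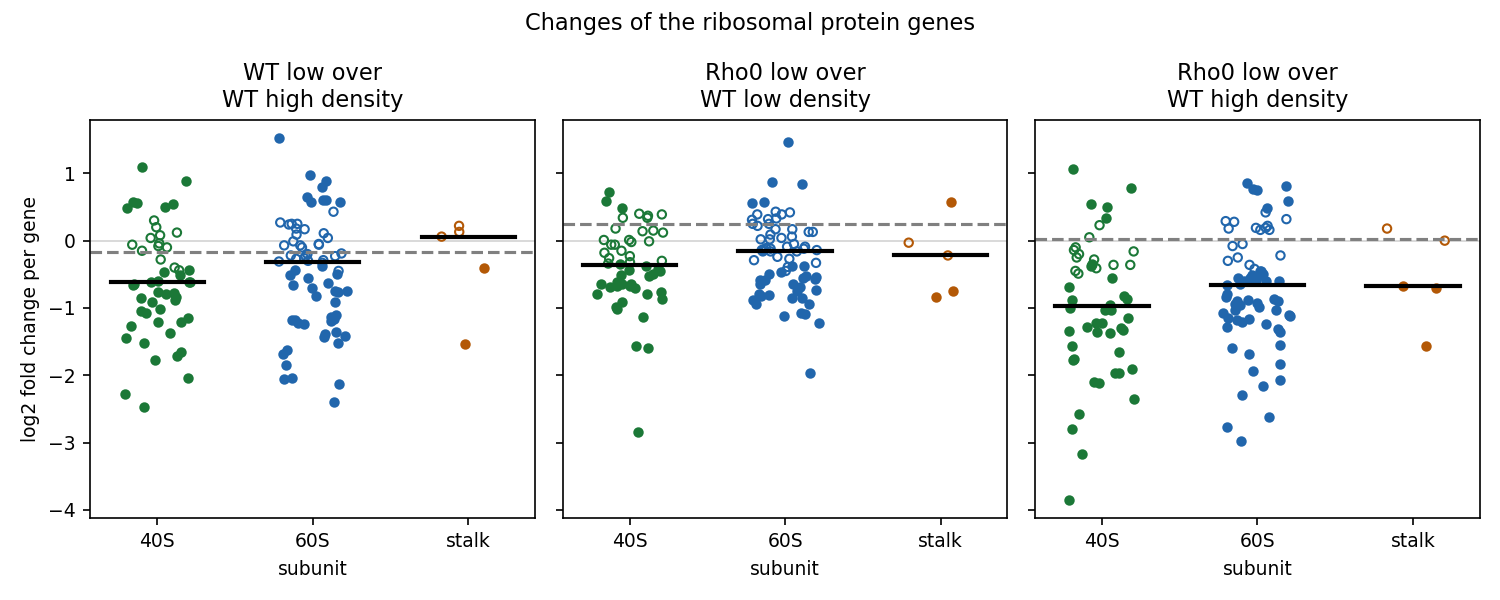
Log2 fold change of each ribosomal protein gene (points) in the 3 comparisons, by subunit. Filled points passed the test at an adjusted p under 0.05 and open points did not, black bars are the medians of a subunit, and the dashed line is the median of all 5449 genes. Most points lie below the dashed line in each comparison, and single genes range from -3.85 (RPS14B, Rho0 low over WT high density) to 1.53 (RPL15A, WT low over WT high density).

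The first comparison asks how the light WT fraction differed from the dense one. Of the 127 genes, 16 (12.6%) were higher and 67 (52.8%) lower in WT low density than in WT high density, and 44 did not pass limma's test at an adjusted p under 0.05. Over all 5449 genes, 67.2% passed, 26.2% as higher and 41.1% as lower. The median change was -0.45 for the ribosomal protein genes and -0.17 for all genes. A change of at least 2-fold was called in 37 genes as lower and in 2, RPL15A and RPS2, as higher, against 16.3% and 11.7% of all genes. After scaling to the poly-A spike-ins the split was 5 higher and 70 lower, against 880 and 2462 of all 5449 genes. The values of the groups did not overlap for 56 of the 127 genes, which is 44.1% and close to the 47.9% of all genes. Of the 52 40S genes 7 were higher and 32 lower with a median of -0.61, and of the 70 60S genes 9 were higher and 33 lower with a median of -0.32.

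Among the 40S genes RPS11A, RPS14B and RPS27B were lower in the light WT fraction, while RPS2 and RPS27A were higher. RPS11A (YDR025W), an rRNA-binding protein gene whose copies make the same protein, read 6.37, 6.09, 6.54, 6.36 and 6.23 in Rho0 low density, 7.24, 7.14, 7.16, 7.19 and 6.34 in WT low density and 9.47, 9.41, 9.59, 9.48 and 9.48 in WT high density. The WT high density arrays lay far above all others, and WT low density replicate 5 stood below its own group, among the Rho0 arrays. The change was -2.47 ± 0.15, adjusted p = 8.65e-11 (5.54-fold lower; limma, ± SE). RPS2 (YGL123W), a single gene for an essential protein near the path by which mRNA enters the ribosome, read 10.41, 10.32, 10.47, 10.35 and 10.25 in Rho0 low density, 10.40, 10.32, 10.46, 10.33 and 10.38 in WT low density and 9.35, 9.31, 9.36, 9.04 and 9.38 in WT high density. Both light fractions overlapped and lay above all WT high density arrays, with 1.09 ± 0.10, adjusted p = 2.14e-08. RPS3 (YNL178W), the gene of a neighbour of Rps2 at the mRNA entry, went the other way at -1.65 ± 0.15, adjusted p = 1.49e-08. It was picked after its values were seen.

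Among the 60S genes RPL38, RPL24A and RPL43B were the most reduced in the light WT fraction, and RPL15A, RPL8B and RPL3 were higher. RPL38 (YLR325C), a single gene for a small non-essential protein, read 9.57, 8.82, 8.70, 8.87 and 8.75 in Rho0 low density, 7.62, 7.60, 7.35, 7.40 and 7.37 in WT low density and 9.22, 9.82, 10.33, 10.02 and 9.93 in WT high density. WT low density lay below both other groups with no overlap, and the Rho0 and WT high density arrays overlapped only through Rho0 replicate 1. The change in WT low against WT high density was -2.40 ± 0.19, adjusted p = 2.24e-09 (5.28-fold lower). RPL24A (YGL031C) encodes a protein that joins late and forms a bridge between the subunits. It read 5.26, 4.91, 5.0, 4.90 and 5.05 in Rho0 low density, 5.47, 6.20, 5.73, 5.91 and 6.04 in WT low density and 7.73, 7.45, 8.50, 8.37 and 7.94 in WT high density. As deposited the 3 groups did not overlap, and the change was -2.13 ± 0.18, adjusted p = 7.95e-09. With the spike-ins the changes against WT high density were -2.36 in WT low and -2.52 in Rho0 low density.

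RPL15A (YLR029C), the copy of its pair that cells need to live, read 8.83, 8.78, 8.91, 8.83 and 8.78 in Rho0 low density, 10.19, 9.63, 9.51, 9.81 and 9.72 in WT low density and 8.42, 8.02, 8.11, 8.31 and 8.33 in WT high density. It was highest in WT low density and the groups did not overlap. Its change of 1.53 ± 0.13, adjusted p = 5.15e-09 was the highest of the 127 genes in this comparison. RPL3 (YOR063W), whose protein reaches into the centre where peptide bonds form, was also higher in the light WT fraction, at 0.88 ± 0.11, adjusted p = 7.39e-07, with means of 10.05 ± 0.05 in WT low density and 9.17 ± 0.16 in WT high density (SD, n = 5 each).

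The second comparison sets the light Rho0 fraction against the light WT fraction, where density is the same and the strain differs. As deposited, 9 of 127 genes (7.09%) were higher and 57 (44.9%) lower in Rho0 low density, with 61 not passing, but after scaling to the poly-A spike-ins the counts turned to 52 higher and 7 lower. Of all 5449 genes 44.6% were higher and 22.7% lower as deposited (67.3% called), while 3955 were higher and 464 lower with the spike-ins. What did not depend on a shift of whole arrays was the distance between the ribosomal protein genes and the rest. Their median was -0.29 and that of all genes 0.25 as deposited, and 0.39 and 0.94 with the spike-ins, so it lay 0.54 below in both. A fall of at least 2-fold was called in 10 genes (10.1% of all genes) and a rise of at least 2-fold in 1, RPL38 (17.7% of all genes). The groups did not overlap for 63 of 127 genes, or 49.6%, against 57.2% of all genes. As deposited 3 of 52 40S genes were higher and 27 lower, and 5 of 70 60S genes were higher and 28 lower, while the spike-in scaling gave 19 higher and 4 lower and 31 higher and 3 lower.

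RPS27A (YKL156W), which encodes a zinc-binding protein of the small subunit used in rRNA maturation, was the most reduced. It read 8.60, 8.33, 8.53, 8.42 and 8.34 in Rho0 low density, 11.67, 11.43, 11.28, 11.01 and 11.10 in WT low density and 10.26, 10.57, 10.56, 10.27 and 10.44 in WT high density. The 3 groups did not overlap and WT low density was highest. The change was -2.85 ± 0.13, adjusted p = 1.48e-12 (7.22-fold lower), and it was -2.17 with the spike-ins. RPL23A (YBL087C), the gene of a protein at the face between the subunits, read 9.07, 9.16, 9.41, 9.13 and 9.13 in Rho0 low density, 11.29, 11.14, 11.05, 11.07 and 11.17 in WT low density and 11.41, 11.18, 11.54, 11.29 and 11.27 in WT high density. All Rho0 arrays lay far below the 10 WT arrays, and the 2 WT groups overlapped. The change against WT low density was -1.97 ± 0.11, adjusted p = 1.78e-11, and -1.28 with the spike-ins. RPS12 (YOR369C), the gene of a protein of the beak of the small subunit, read 10.80, 10.89, 10.88, 10.80 and 10.99 in Rho0 low density, 12.49, 12.41, 12.46, 12.47 and 12.54 in WT low density and 12.73, 12.88, 13.04, 13.28 and 12.99 in WT high density. The groups did not overlap, with -1.60 ± 0.11, adjusted p = 3.4e-10 against WT low density and -0.92 with the spike-ins. RPL14A (YKL006W), a 60S gene, read 8.22, 8.15, 8.17, 8.21 and 8.25 in Rho0 low density, 9.66, 9.32, 9.40, 9.35 and 9.38 in WT low density and 8.72, 8.60, 9.48, 8.72 and 8.75 in WT high density. All Rho0 arrays were below all WT arrays, at -1.22 ± 0.14, adjusted p = 4.69e-07 against WT low density.

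Higher in Rho0 low density than in WT low density were RPL38, RPL9B, RPS20, RPP0 and RPL37B. The spike-in scaling moves all genes up in this comparison, so it could not have turned these and is no test of them. RPL38, whose values are given above, was the only gene of the 127 with a rise of over 2-fold (1.47 ± 0.19, adjusted p = 1.25e-06). RPL9B (YNL067W) averaged 8.25 ± 0.15 in Rho0 low density, 7.41 ± 0.14 in WT low density and 8.77 ± 0.45 in WT high density, a change of 0.84 ± 0.17, adjusted p = 0.000236 against WT low density. RPS20 (YHL015W), the single gene of a protein of the 40S head, rose by 0.59 ± 0.18, adjusted p = 0.00741. RPL37B (YDR500C), whose protein binds zinc, rose by 0.57 ± 0.15, adjusted p = 0.00241. With the S. cerevisiae medians set equal, RPS20 (0.32) and RPL37B (0.31) no longer passed.

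The third comparison sets the light Rho0 fraction against the dense WT fraction, so strain and density differ together. It shares its arrays with the other comparisons and is no further evidence for them. Of the 127 genes 11 (8.66%) were higher, 83 (65.4%) lower and 33 not called, against 37.9% higher and 34.4% lower (72.4% called) among all genes. With the spike-ins the split was 22 higher and 51 lower, against 2727 and 1022 of all genes. The median was -0.82 for the ribosomal protein genes and 0.03 for all genes, and 50 genes were at least 2-fold lower and 1, RPS2, at least 2-fold higher (17.8% and 20.4% of all genes). The groups did not overlap for 74 genes, or 58.3%, against 58.9% of all genes. RPS28B, RPL40B, RPS20 and RPL5 were named in this comparison beside genes described above. RPS28B (YLR264W), whose protein is known to bind its own mRNA and bring about its decay, read 5.64, 5.68, 5.55, 5.84 and 5.87 in Rho0 low density, 6.62, 6.91, 6.80, 6.66 and 6.67 in WT low density and 7.96, 8.21, 9.29, 8.73 and 8.36 in WT high density. The 3 groups did not overlap, and Rho0 low density was 6.95-fold lower than WT high density (-2.80 ± 0.18, adjusted p = 9.45e-11). RPL40B (YKR094C), which encodes a 60S protein made as a fusion with ubiquitin, changed by -2.77 ± 0.17, adjusted p = 2.98e-11. RPL5 (YPL131W), the gene of the protein that carries 5S rRNA, was higher at 0.77 ± 0.23, adjusted p = 0.00688, and RPS20 was higher at 0.78 ± 0.18, adjusted p = 0.000681.

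The stalk is the flexible arm of the large subunit that recruits translation factors. Rpp0 anchors it, and the acidic proteins Rpp1A with Rpp2B and Rpp1B with Rpp2A form its tips. RPP0 (YLR340W) read 11.17, 11.03, 11.10, 11.05 and 11.07 in Rho0 low density, 10.59, 10.28, 10.60, 10.51 and 10.55 in WT low density and 11.10, 10.84, 11.26, 10.59 and 10.73 in WT high density. Rho0 low density lay above WT low density with no overlap, and WT high density spanned both. RPP0 changed by 0.58 ± 0.13, adjusted p = 0.000509 in Rho0 low against WT low density, by -0.40 ± 0.13, adjusted p = 0.00945 in WT low against WT high density, and by 0.18 ± 0.13, adjusted p = 0.203 in Rho0 low against WT high density. With equal S. cerevisiae medians the change between the WT fractions was -0.27 and did not pass. The change in Rho0 low against WT high density passed with the spike-ins (0.63) and without WT high density replicate 3 (0.27).

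RPP1B (YDL130W) read 9.18, 9.11, 9.02, 9.13 and 9.17 in Rho0 low density, 8.94, 9.09, 9.23, 9.19 and 9.31 in WT low density and 10.41, 10.52, 11.20, 10.76 and 10.56 in WT high density. Both light fractions overlapped and lay below all WT high density arrays, at -1.54 ± 0.13, adjusted p = 1.04e-08 for WT low and -1.57 ± 0.13, adjusted p = 3.93e-09 for Rho0 low against WT high density. RPP1A (YDL081C) gave 0.22 ± 0.12, adjusted p = 0.121 and 0.0 ± 0.12, adjusted p = 0.98 for the same comparisons and -0.22 ± 0.12, adjusted p = 0.128 for Rho0 low against WT low density, and did not pass in any as deposited. With equal S. cerevisiae medians it passed at 0.34 in WT low against WT high density and at -0.48 in Rho0 low against WT low density. It also passed at 0.32 between the WT fractions without WT high density replicate 3, and between the strains at -0.22 with only the 10 arrays compared and at -0.24 with array weights. RPP2A (YOL039W) and RPP2B (YDR382W) differed in Rho0 low from WT low density, by -0.84 ± 0.14, adjusted p = 4.56e-05 and -0.75 ± 0.15, adjusted p = 0.000192. Under the spike-in scaling these 2 became -0.16 and -0.06 and did not pass. In WT low against WT high density they were at 0.13 ± 0.14 and 0.06 ± 0.15 (adjusted p of 0.448 and 0.722). Both were called lower as deposited in Rho0 low against WT high density, at -0.71 and -0.68. With the spike-ins these changes, at -0.26 and -0.23, did not pass.

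The 18 single-copy genes have no paralog to take part of their output. In WT low against WT high density 3 (16.7%) were higher and 10 (55.6%) lower, between -2.40 (RPL38) and 1.09 (RPS2), against 26.2% and 41.1% of all genes. As deposited 3 were higher and 6 lower in Rho0 low against WT low density, between -1.60 (RPS12) and 1.47 (RPL38), but 10 higher and 1 lower with the spike-ins. All genes stood at 44.6% higher and 22.7% lower as deposited, while 3955 of the 5449 were higher and 464 lower with the spike-ins. Against WT high density 4 were higher and 11 lower in Rho0 low density as deposited, between -2.11 (RPS12) and 1.07 (RPS2), where all genes stood at 37.9% and 34.4%. With the spike-ins 6 were higher and 8 lower there, against 2727 and 1022 of all 5449 genes. Of the genes in pairs, A and B genes were called lower about equally often. In WT low against WT high density 24 of 50 A genes (48.0%) and 27 of 50 B genes (54.0%) were lower, in Rho0 low against WT low density 23 (46.0%) and 24 (48.0%) as deposited, and in Rho0 low against WT high density 32 (64.0%) and 34 (68.0%). Whether the members of a pair moved alike was tested pair by pair.

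For that test the A minus B difference of log2 signals was taken on each array, and its change between groups was fitted in limma. A difference between probe sets says nothing about which copy is the more abundant. Its change says whether the signals of the probe sets changed unequally, and a shift of a whole array cancels in it. Probe sets of the same gene could also change unequally, as given below, so an unequal signal need not mean that the copies changed unequally. Unequal change was called for 36 of 50 pairs (72.0%) in WT low against WT high density, 33 (66.0%) in Rho0 low against WT low density and 36 (72.0%) in Rho0 low against WT high density. These p-values were adjusted over the 52 A and B pairs of the array, of which only COX5 and NHP6 are not ribosomal, so the background of 71.2%, 67.3% and 73.1% is nearly the same set. Adjusted as for 5449 tests, 26, 11 and 27 pairs passed. The A minus B differences of the groups did not overlap for 32, 25 and 29 pairs. The change differed by at least 1 on the log2 scale in 19, 7 and 19 called pairs. In the called pairs A moved below B in 13, 17 and 14 and B below A in 23, 16 and 22. For some pairs the call or the direction depended on the probe set, as given below.

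**Figure D2:**
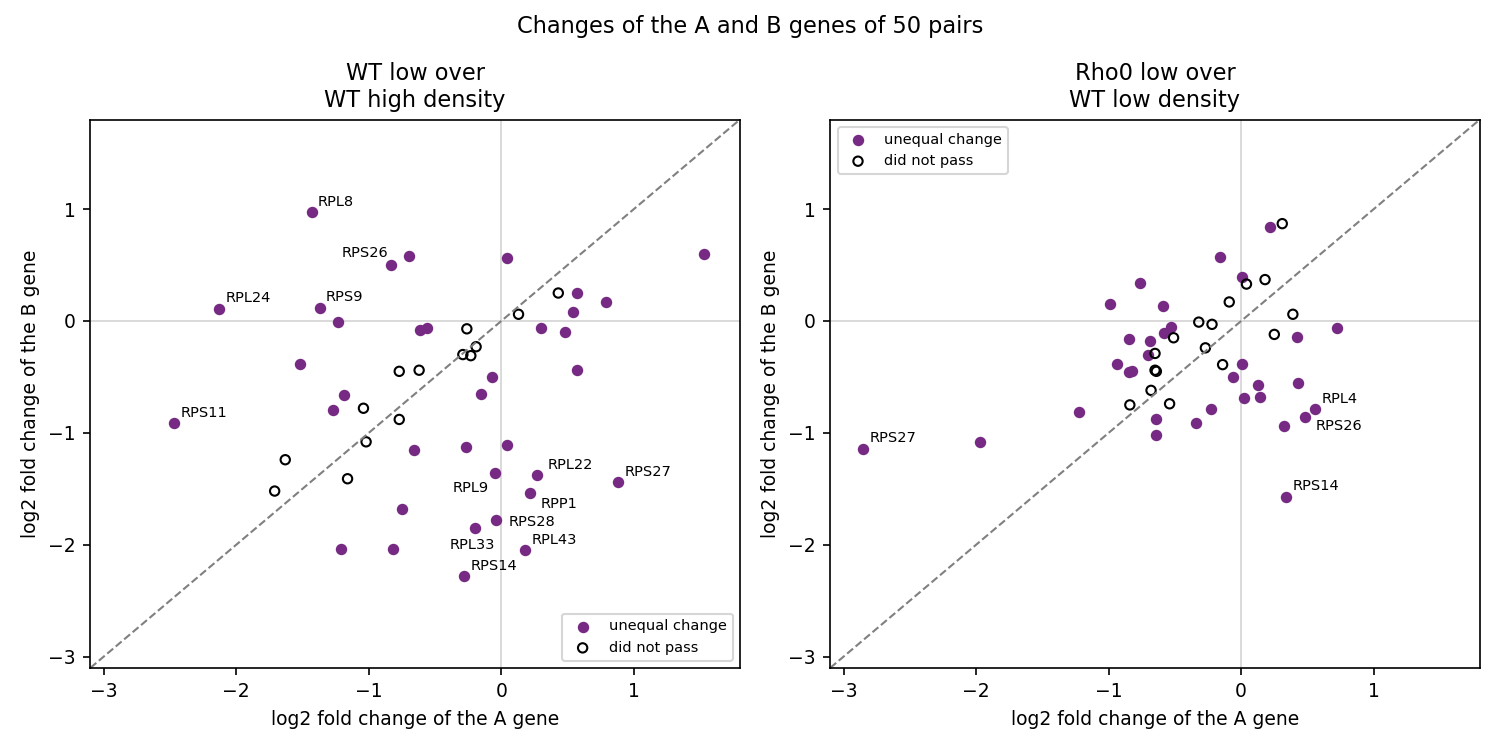
Log2 fold change of the B gene against that of the A gene for 50 pairs, in WT low over WT high density and Rho0 low over WT low density. Filled points are pairs with unequal change (36 and 33), the dashed line marks equal change, and named pairs differ by 1.3 or more. Points spread far from the line on both sides, and RPL8 and RPS27 lie in opposite corners of the left panel.

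Counted by the calls of their genes, both copies were lower in 15 pairs in WT low against WT high density, in 12 in Rho0 low against WT low density and in 22 in Rho0 low against WT high density. Only 1 copy was lower in 17, 21 and 17 pairs, only 1 was higher in 6, 4 and 2, both were higher in 1, 0 and 0, neither was called in 7, 11 and 4, and the copies were called in opposite directions in 4, 2 and 5. The pair with both copies higher was RPL15. All of these counts are as deposited, and those of the second comparison depend on the scaling of the arrays as its gene counts do. For each pair below the A minus B change is given with its SE and the adjusted p as for 5449 tests.

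In the RPS14 pair, whose proteins sit on the platform of the small subunit, the B copy moved below the A copy in each comparison. RPS14B (YJL191W), whose unspliced RNA the Rps14 protein is known to bind, which limits its splicing, read 6.82, 6.96, 7.05, 6.87 and 6.96 in Rho0 low density, 8.48, 8.65, 8.17, 8.52 and 8.67 in WT low density and 10.78, 10.88, 10.94, 10.64 and 10.66 in WT high density. The 3 groups lay in 3 separate steps. RPS14A (YCR031C) read 10.39, 10.08, 10.08, 10.10 and 9.96 in Rho0 low density, 10.21, 9.58, 9.79, 9.71 and 9.64 in WT low density and 10.29, 10.17, 10.36, 9.65 and 9.87 in WT high density, and its groups overlapped. RPS14B changed by -2.28 ± 0.11, adjusted p = 8.43e-12 in WT low against WT high density, by -1.57 ± 0.11, adjusted p = 1.08e-09 in Rho0 low against WT low density and by -3.85 ± 0.11, adjusted p = 1.71e-15 in Rho0 low against WT high density (14.4-fold lower). RPS14A gave -0.28 ± 0.15, 0.34 ± 0.15 and 0.05 ± 0.15, with none called as deposited. RPS14A passed, however, in Rho0 low against WT low density with the spike-ins (1.02) and with equal S. pombe medians (0.43), and in WT low against WT high density with equal S. pombe medians (-0.36). Without WT low density replicate 1 it passed in both, at 0.44 and -0.39, as it did without WT high density replicate 4, at 0.34 and -0.39, and without WT high density replicate 3 it passed in the Rho0 comparison alone, at 0.34. With a replicate block RPS14A passed in both, at 0.34 and -0.28. In Rho0 low against WT low density it also passed at 0.34 with only the 10 arrays compared, with array weights and with a trend and robust fit. Quantile normalization within the S. cerevisiae genes gave 0.40 there, which passed too. The A minus B change was 2.0 ± 0.16 (adjusted p = 6.35e-07), 1.90 ± 0.16 (adjusted p = 3.62e-06) and 3.90 ± 0.16 (adjusted p = 1.37e-10) in the 3 comparisons.

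As deposited, RPL43 and RPL24 had the same 1-sided form. RPL43B (YJR094W-A), a 60S gene whose protein is known to need Puf6 and Loc1 for loading, read 8.86, 8.97, 8.99, 9.01 and 8.86 in Rho0 low density, 9.36, 9.56, 9.59, 9.43 and 9.63 in WT low density and 11.02, 11.22, 12.06, 12.09 and 11.42 in WT high density. As deposited the dense fraction was highest, WT low density next and Rho0 low density lowest, with no overlap. RPL43B was 4.14-fold lower in WT low than in WT high density (-2.05 ± 0.17, adjusted p = 7.13e-09). With the spike-ins its change against WT high density was -2.28 in WT low and -2.17 in Rho0 low density. The order of the light fractions thus depends on the scaling. RPL43A (YPR043W) averaged 10.06 ± 0.17 in Rho0 low density, 9.93 ± 0.20 in WT low density and 9.75 ± 0.31 in WT high density and was not called as deposited. In Rho0 low against WT high density it passed at 0.77 with the spike-ins, at 0.37 without WT high density replicate 2 and at 0.43 without WT high density replicate 3. It also passed there at 0.32 with a trend and robust fit and at 0.31 with array weights. Quantile normalization within the S. cerevisiae genes gave 0.36, which passed too. The A minus B change was 2.23 ± 0.19 (adjusted p = 9.34e-07) in WT low and 2.94 ± 0.19 (adjusted p = 2.84e-08) in Rho0 low against WT high density.

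For RPL24 it was the A copy that moved, as given above, while RPL24B (YGR148C) averaged 4.44 ± 0.20 in Rho0 low density, 4.60 ± 0.31 in WT low density and 4.49 ± 0.27 in WT high density. RPL24B was not called as deposited. With quantile normalization within the S. cerevisiae genes it passed at 0.37 in WT low against WT high density. The A minus B change was -2.24 ± 0.17 (adjusted p = 4.98e-07) in WT low and -2.92 ± 0.17 (adjusted p = 7.7e-09) in Rho0 low against WT high density. In the RPS28 pair RPS28A (YOR167C) averaged 8.63 ± 0.11 in Rho0 low density, 9.27 ± 0.06 in WT low density and 9.31 ± 0.25 in WT high density. The A minus B change in Rho0 low against WT high density was 2.11 ± 0.14 (adjusted p = 4.07e-08), with both copies lower as deposited and RPS28B the more so. With the spike-ins RPS28A, at -0.23, no longer passed.

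**Figure D3:**
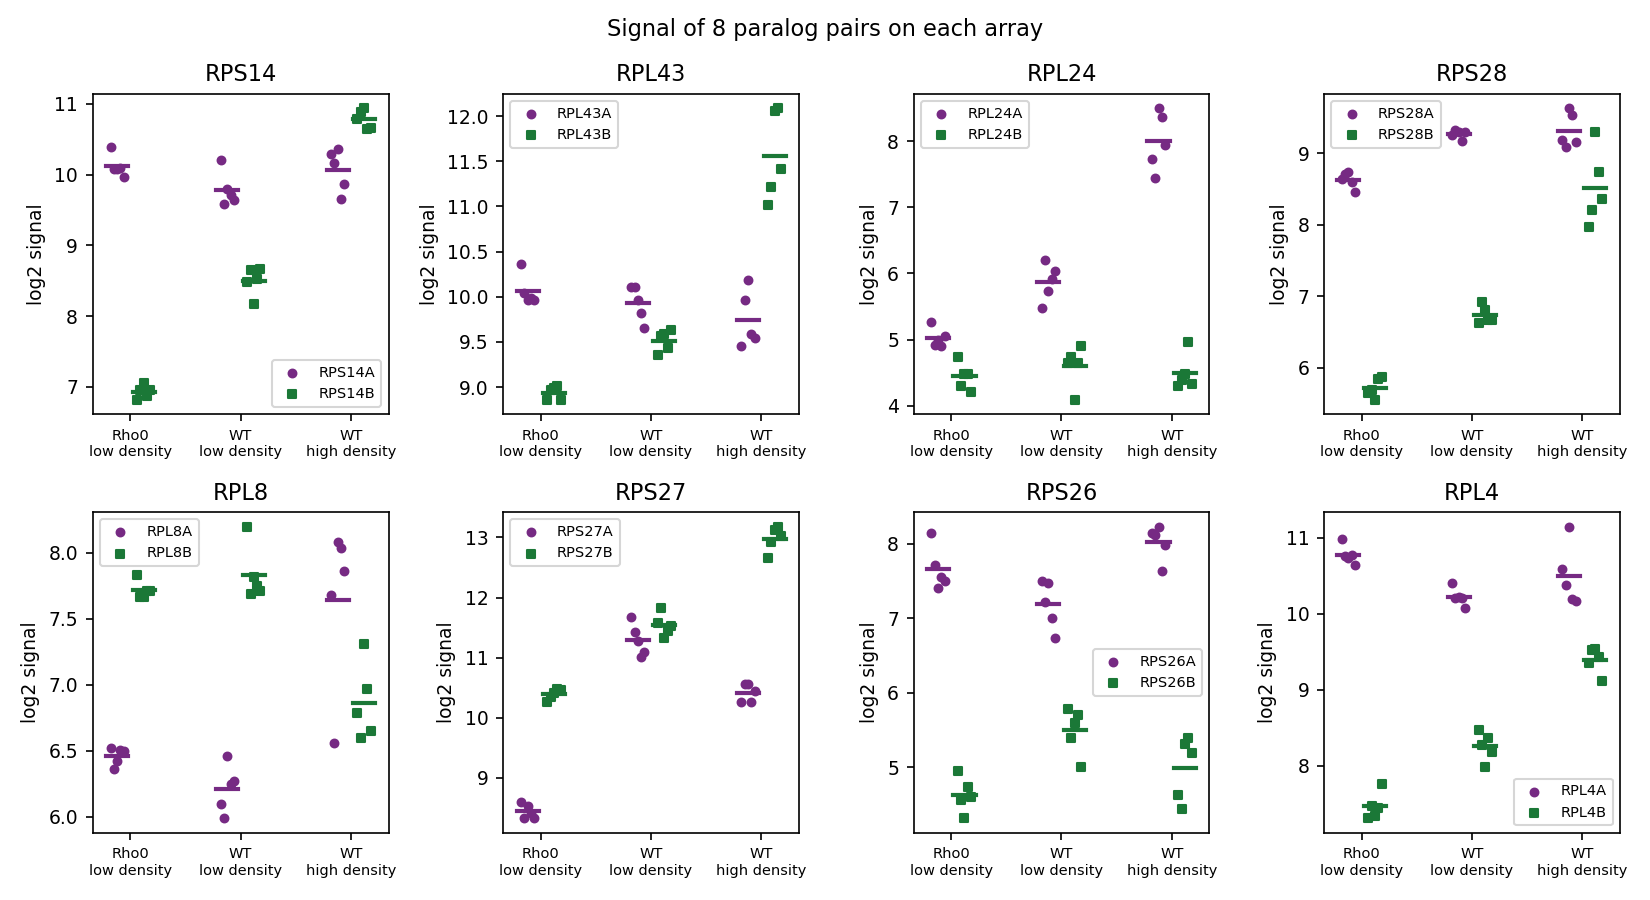
Log2 signal of the A gene (circles) and B gene (squares) of 8 pairs on each of the 5 arrays of a group, with bars at the means. The heights of circles and squares cannot be compared with each other, only the shape across groups. RPS14B, RPL43B, RPL24A and RPS28B step up toward WT high density while the partners of the first 3 stay within 1 unit. The copies of RPL8 and of RPS27 move apart between the WT groups, though RPL8A has a second probe set, not drawn, that was not called.

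RPL8 and RPS27 moved in opposite directions between the WT fractions. RPL8A (YHL033C), one of the genes of a 60S protein needed in early steps of large subunit assembly, read 6.52, 6.36, 6.42, 6.51 and 6.50 in Rho0 low density, 6.10, 5.99, 6.46, 6.25 and 6.27 in WT low density and 7.68, 6.56, 8.08, 8.04 and 7.86 in WT high density. WT high density was highest, although its replicate 2, at 6.56, lay just above the light fractions. RPL8B (YLL045C) read 7.83, 7.67, 7.67, 7.71 and 7.71 in Rho0 low density, 8.20, 7.69, 7.82, 7.75 and 7.71 in WT low density and 6.79, 6.60, 7.31, 6.97 and 6.65 in WT high density. Here WT high density was lowest, with no overlap with either light fraction. In WT low against WT high density RPL8A changed by -1.43 ± 0.21, adjusted p = 9.06e-06 and RPL8B by 0.97 ± 0.14, adjusted p = 5.43e-06, with an A minus B change of -2.40 ± 0.19 (adjusted p = 6.35e-07). The opposite calls rest on 1 of the probe sets of RPL8A. Its other set averaged 6.64 in Rho0 low, 6.89 in WT low and 6.53 in WT high density. That set gave 0.36 ± 0.17 between the WT fractions and was not called.

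RPS27B (YHR021C) read 10.27, 10.34, 10.42, 10.48 and 10.47 in Rho0 low density, 11.58, 11.83, 11.32, 11.44 and 11.53 in WT low density and 12.65, 12.92, 13.12, 13.18 and 13.02 in WT high density. Its order, with WT high density on top, differed from that of RPS27A given above, where WT low density was on top. In WT low against WT high density RPS27A changed by 0.88 ± 0.13, adjusted p = 8.32e-06 and RPS27B by -1.44 ± 0.12, adjusted p = 7.71e-09, an A minus B change of 2.32 ± 0.14 (adjusted p = 1.59e-08). Both copies were lower in Rho0 low than in WT low density, RPS27A more than RPS27B, with -1.71 ± 0.14 (adjusted p = 1.75e-06).

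RPS26 and RPL4 were called in opposite directions between the strains. RPS26A (YGL189C), whose protein lies where mRNA leaves the small subunit, read 8.14, 7.72, 7.40, 7.55 and 7.50 in Rho0 low density, 7.50, 7.22, 7.47, 7.01 and 6.74 in WT low density and 8.14, 8.12, 8.23, 7.64 and 7.98 in WT high density. RPS26B (YER131W) read 4.95, 4.57, 4.32, 4.74 and 4.60 in Rho0 low density, 5.78, 5.40, 5.59, 5.71 and 5.0 in WT low density and 4.63, 4.44, 5.32, 5.39 and 5.20 in WT high density. Rho0 arrays tended to be higher for the A copy, with overlap, and were lower for the B copy without overlap. RPS26A changed by 0.48 ± 0.17, adjusted p = 0.0179 and RPS26B by -0.86 ± 0.19, adjusted p = 0.000638 in Rho0 low against WT low density, with an A minus B change of 1.34 ± 0.21 (adjusted p = 0.00628). Without Rho0 replicate 1 or without WT low density replicate 5 the change of RPS26A no longer passed, at 0.36 and 0.37, nor did it with equal S. cerevisiae medians, at 0.21. Between the WT fractions the pair went the other way, with -1.33 ± 0.21 (adjusted p = 0.00254).

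RPL4A (YBR031W) and RPL4B (YDR012W) encode a protein that lines the tunnel by which the growing chain leaves the ribosome. RPL4B read 7.31, 7.47, 7.34, 7.45 and 7.76 in Rho0 low density, 8.47, 8.27, 7.99, 8.37 and 8.18 in WT low density and 9.35, 9.52, 9.54, 9.43 and 9.12 in WT high density, in 3 steps without overlap. RPL4A averaged 10.78 ± 0.12 in Rho0 low density, 10.22 ± 0.12 in WT low density and 10.50 ± 0.40 in WT high density, and its probe set may bind the partner's RNA too. Against WT low density RPL4A changed in Rho0 low density by 0.56 ± 0.15, adjusted p = 0.00389 and RPL4B by -0.79 ± 0.12, adjusted p = 1.89e-05, with an A minus B change of 1.35 ± 0.16 (adjusted p = 0.000234). It was 2.21 ± 0.16 (adjusted p = 9.3e-08) in Rho0 low against WT high density. With equal S. cerevisiae medians RPL4A (0.29) no longer passed against WT low density. With the spike-ins RPL4B (-0.11) and RPS26B (-0.18) no longer passed against WT low density, while the A minus B changes are the same under any shift of an array. RPL26, whose protein also sits at the tunnel's exit, had an A minus B change of 1.27 ± 0.13 (adjusted p = 2.72e-05) in Rho0 low against WT low density, from 0.32 ± 0.19 in RPL26A (YLR344W) and -0.94 ± 0.17 in RPL26B (YGR034W). As deposited only RPL26B was called, but with the spike-ins RPL26A passed at 1.01 and RPL26B, at -0.26, did not. RPL26A also passed at 0.32 with only the 10 arrays compared.

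The other pairs called in opposite directions included RPL20 and the already named RPS26 in WT low against WT high density, and RPL20, RPL34, RPL8 and RPS9 in Rho0 low against WT high density. The A minus B change of RPL20 was -1.28 ± 0.14 and -1.76 ± 0.14 in these comparisons. Between Rho0 low and WT high density it was 1.34 ± 0.18 for RPL34, -2.03 ± 0.19 for RPL8 and -1.86 ± 0.16 for RPS9. The probes for RPL20B may also bind other transcripts. The other probe set of RPL8A gave 0.11 ± 0.17 between Rho0 low and WT high density and was not called.

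How far an array can tell paralogs apart depends on its probes. Affymetrix marks a probe set as _at where all its probes are taken to be specific, as s_at where the probes are shared by several transcripts, and as x_at where some probes may bind others. The 127 genes were read by 20 s_at and 5 x_at probe sets, and all 9 genes whose partner was not analysed were read by s_at. In the 36 pairs with both copies on _at sets, 26, 23 and 26 were called unequal, or 72.2%, 63.9% and 72.2%. Other pairs could change when the _at set was used where a gene had one. In WT low against WT high density the A minus B change of RPS23 then turned from 0.50 to -0.37, called both times. RPL11 gained a call, from 0.18 to 1.72, and RPS18 lost one, from 0.37 to 0.14. RPL20 kept its call, from -1.28 to -1.65.

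For 20 genes the array held both an _at set and an s_at or x_at set. The calls of the sets differed for 8 genes in WT low against WT high density, for 5 in Rho0 low against WT low density and for 7 in Rho0 low against WT high density, and were opposite for 0. The changes lay at least 0.5 apart for 6, 2 and 10 genes. The median gap was 0.43, 0.15 and 0.64 for the 14 genes with an s_at set and 0.08, 0.03 and 0.10 for the 6 with an x_at set. RPL8A changed by -1.43 ± 0.21 on its _at set and by 0.36 ± 0.17 on its s_at set in WT low against WT high density. RPL11B (YGR085C), whose protein binds 5S rRNA together with Rpl5, gave -1.29 ± 0.26 on the _at set and 0.25 ± 0.18 on the s_at set. The s_at set had the higher mean and so represents RPL11B in the counts above. RPL14B gave -1.01 ± 0.18 and 0.25 ± 0.12, RPL21A -1.63 ± 0.17 and -0.56 ± 0.16, RPS23A -1.02 ± 0.13 and -0.15 ± 0.11, and RPS11B -0.05 ± 0.12 and -0.91 ± 0.15, each for the _at set first.

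**Figure D4:**
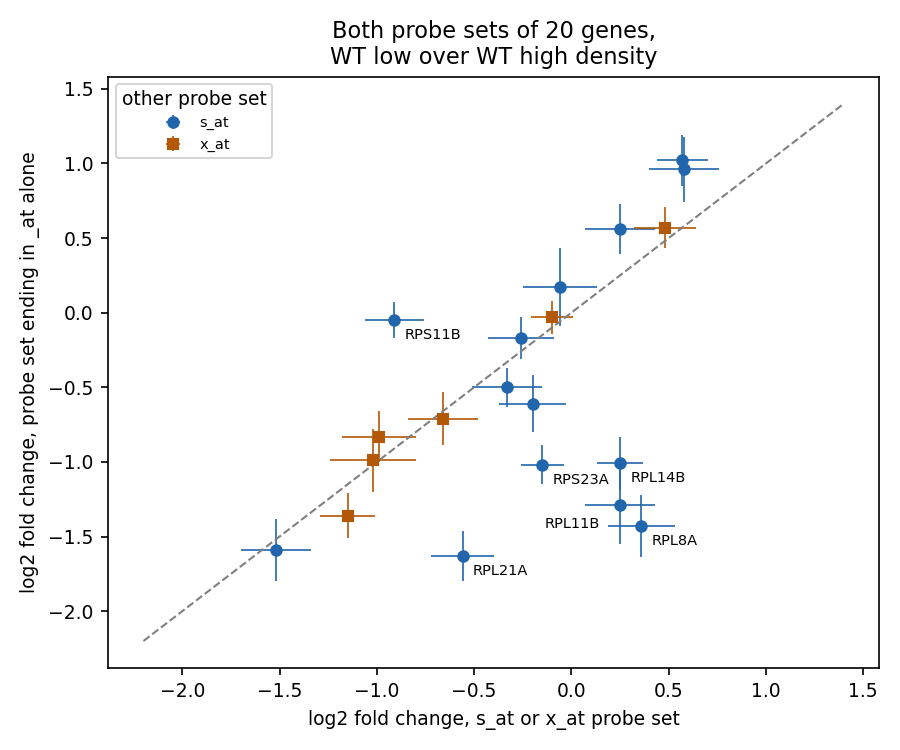
Log2 fold change in WT low over WT high density of the 20 genes with a second probe set, on the _at set (vertical) and on the s_at (circles) or x_at set (squares), with SE bars and a dashed line at equal change. The 6 x_at genes lie near the line, and 6 of the 14 s_at genes lie 0.5 or more off it, 5 of them below and RPS11B above.

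Some ribosomal protein genes lie next to each other on a chromosome. RefSeq's order of protein-coding genes holds 10 such adjacent pairs, and both genes were analysed in 9. RPS14B and its neighbour RPS22A changed by -2.28 and 0.54 in WT low against WT high density, and RPL24A and its neighbour RPL30 by -2.13 and -0.22. RPL24A and RPL30 changed by -0.85 and -0.75 in Rho0 low against WT low density, and RPS22A and its other neighbour RPL39 by -0.99 and 0.39. The gap within the 9 pairs ran between 0.31 and 2.82 in the first of these comparisons and between 0.09 and 1.38 in the second.

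Of 27 regulators of ribosomal protein genes, all measured, 2 were higher and 20 lower in WT low than in WT high density, 9 higher and 7 lower in Rho0 low than in WT low density, and 2 higher and 16 lower in Rho0 low than in WT high density. Of all genes 26.2% were higher and 41.1% lower in the first comparison, 44.6% and 22.7% in the second and 37.9% and 34.4% in the third. With the spike-ins the counts of regulators were 1 and 21, 15 and 1, and 8 and 10, so both Rho0 comparisons depend on the scaling. Of all 5449 genes 880 and 2462, 3955 and 464, and 2727 and 1022 were then higher and lower. Among the factors that bind at ribosomal protein promoters, IFH1, the coactivator, was at least 4.02-fold lower in WT low density and at least 4.02-fold lower in Rho0 low density than in WT high density, with means under the background level in both light fractions. CRF1, the corepressor that competes with Ifh1 for Fhl1, averaged 4.60 ± 0.27 in Rho0 low density, 4.42 ± 0.30 in WT low density and 7.63 ± 0.16 in WT high density, a change of -3.21 ± 0.15, adjusted p = 4.98e-12 for WT low and -3.03 ± 0.15 for Rho0 low against WT high density. RAP1, which opens these promoters, changed by -1.60 ± 0.14, adjusted p = 4.52e-09 in Rho0 low against WT high density, and SFP1, an activator, by -1.01 ± 0.17, adjusted p = 3.16e-05. FHL1 was not called in any comparison, at -0.12 ± 0.18, 0.25 ± 0.18 and 0.13 ± 0.18 in the order given above.

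ABF1, a general factor found at some ribosomal protein promoters, was at least 4.89-fold lower in WT low than in WT high density and 2.77-fold lower in Rho0 low than in WT high density. The repressors of ribosome synthesis STB3, DOT6 and TOD6 were also lower than in WT high density. STB3 was at least 3.29-fold lower in WT low than in WT high density and at least 2.1-fold higher in Rho0 low than in WT low density. DOT6 changed by -1.35 ± 0.33 in WT low and -1.41 ± 0.33 in Rho0 low against WT high density, and TOD6 was at least 1.98-fold lower in Rho0 low than in WT high density. RRP7, of a complex that binds Ifh1, changed by -1.26 ± 0.17 in WT low against WT high density.

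Of the TOR complex genes LST8 ran opposite to the others. It averaged 7.71 ± 0.15 in Rho0 low density, 9.87 ± 0.17 in WT low density and 6.67 ± 0.31 in WT high density, so it was 9.15-fold higher in WT low than in WT high density (adjusted p = 2.14e-12), 4.45-fold lower in Rho0 low than in WT low density (adjusted p = 2.52e-10) and 2.06-fold higher in Rho0 low than in WT high density. TOR1, TOR2 and KOG1, for kinases and a partner of the same complexes, changed by -1.09 ± 0.19, -1.36 ± 0.10 and -1.21 ± 0.13 in WT low against WT high density. Lower in Rho0 low than in WT high density were other kinases and activators: SCH9, the kinase through which TOR acts on ribosome synthesis, changed by -1.76 ± 0.13, and the stress activators MSN2 and MSN4 by -1.02 ± 0.17 and -1.20 ± 0.11.

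Of 35 genes for chaperones and importers of ribosomal proteins and for ribosome-bound factors, all measured, 9 were higher and 20 lower in WT low than in WT high density, 8 higher and 10 lower in Rho0 low than in WT low density, and 8 higher and 19 lower in Rho0 low than in WT high density. The higher share in the first comparison was close to the 26.2% of all genes, of which 41.1% were lower, while all genes had 44.6% higher and 22.7% lower in the second and 37.9% and 34.4% in the third. With the spike-ins the counts were 5 and 20, 20 and 1, and 12 and 12. Those of all 5449 genes were 880 and 2462, 3955 and 464, and 2727 and 1022. KAP123, the main importer of ribosomal proteins into the nucleus, changed by -1.91 ± 0.14, adjusted p = 6.92e-10 in WT low and -1.81 ± 0.14 in Rho0 low against WT high density. TSR2, the chaperone of Rps26, changed by -1.33 ± 0.16 and -1.78 ± 0.16. YAR1, the chaperone of Rps3, was among the 9 higher in WT low than in WT high density, at 1.64 ± 0.23, adjusted p = 3.87e-06, and changed by -1.64 ± 0.23 in Rho0 low against WT low density. PUF6, needed for loading Rpl43, was at least 1.9-fold lower in WT low and at least 1.9-fold lower in Rho0 low than in WT high density.

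Lower levels in Rho0 low than in WT high density were also called for BCP1, the chaperone of Rpl23 (-1.62 ± 0.19), for TSR4, that of Rps2 (-1.08 ± 0.12), for SYO1, that of Rpl5 and Rpl11 (at least 1.97-fold lower), and for ACL4, that of Rpl4 (at least 1.76-fold lower). BCP1 changed by -1.10 ± 0.19 in Rho0 low against WT low density as deposited. With the spike-ins only 1 of the 35 genes was lower there. At most 1 of the falls of YAR1, BCP1 and MAP1 in that comparison thus passed under this scaling. Of factors that sit on the ribosome, LSO2 and STM1, both known to hold idle ribosomes, changed by -2.18 ± 0.17 and -1.25 ± 0.20 in WT low against WT high density, LSO2 by 1.28 ± 0.17 in Rho0 low against WT low density and STM1 by -1.39 ± 0.20 in Rho0 low against WT high density. The ribosome-bound Hsp70 gene SSB2 changed by -1.11 ± 0.16 in WT low and -1.46 ± 0.16 in Rho0 low, SSB1 by -1.22 ± 0.14 in Rho0 low, and TMA19 by -1.10 ± 0.13 in Rho0 low, each against WT high density.

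EGD1, EGD2 and BTT1 of the nascent chain complex and NAT1 and ARD1 of N-terminal acetylation were all higher in Rho0 low than in WT high density. EGD1 changed by 1.19 ± 0.18 in WT low and 1.39 ± 0.18 in Rho0 low against WT high density. EGD2 changed by 1.03 ± 0.18 in Rho0 low against WT low density and 1.90 ± 0.18 against WT high density, and BTT1 by 1.17 ± 0.18 against WT high density. NAT1, a subunit of the main N-terminal acetylase, averaged 6.42 ± 0.05 in Rho0 low density, 4.58 ± 0.19 in WT low density and 4.0 ± 0.15 in WT high density, with 1.84 ± 0.11, adjusted p = 1.02e-10 in Rho0 low against WT low density. ARD1, its catalytic partner, changed by 1.11 ± 0.17 in the same comparison and by 1.21 ± 0.17 against WT high density. MAP1, which removes the first methionine, changed by -1.03 ± 0.19 in Rho0 low against WT low density as deposited, and NAT4, an N-terminal acetylase of histones, and RKM5, a methylase of Rpl1, by -1.36 ± 0.18 and 1.25 ± 0.11 in Rho0 low against WT high density.

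Markers of other cell types also differed between the groups. Of 11 spore and meiosis genes 0 were higher and 9 lower in WT low than in WT high density, 7 higher and 0 lower in Rho0 low than in WT low density, and 5 higher and 3 lower in Rho0 low than in WT high density. Over all genes, 67.2%, 67.3% and 72.4% were called in either direction in these comparisons. By direction, 26.2% of all genes were higher and 41.1% lower in the first, 44.6% and 22.7% in the second and 37.9% and 34.4% in the third. The markers' mean on an array ran between 4.08 and 4.15 in Rho0 low density, 3.31 and 3.56 in WT low density and 4.13 and 4.29 in WT high density. At or under the background level were 1, 4 and 2 of the 11 in the same order. Their part in the ribosomal protein results was not tested. Of the 4 genes disabled in BY4741, 0 were called in the 3 comparisons, and HIS3 and LEU2 had means above background.

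**Figure D5:**
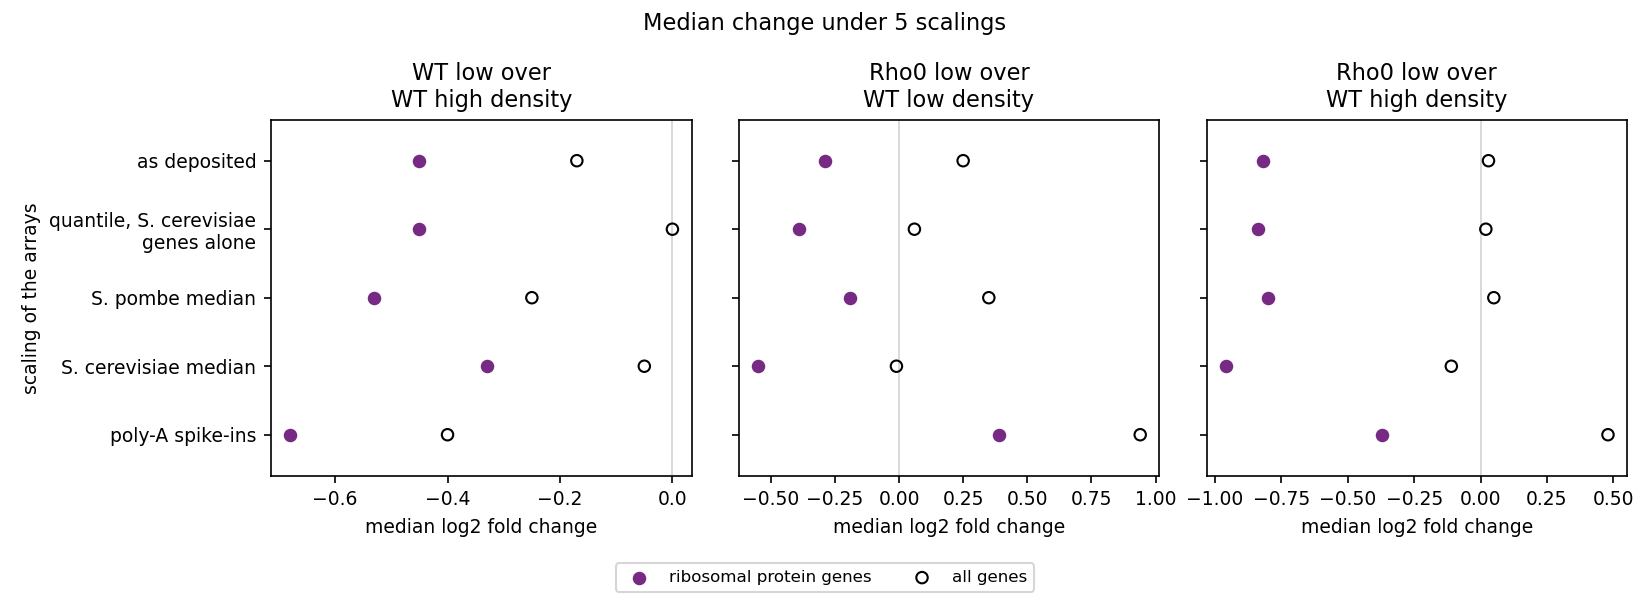
Median log2 fold change of the 127 ribosomal protein genes (filled) and of all 5449 genes (open) under 5 ways of scaling the arrays. The filled point lies left of the open one in every row of every panel, while both move right past 0 in Rho0 low over WT low density with the poly-A spike-ins (0.39 and 0.94).

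Across the 5 ways of scaling, the ribosomal protein genes lay below the median of all genes in all 3 comparisons. A shift of whole arrays leaves this distance as it is, at 0.27 in WT low against WT high density, 0.54 in Rho0 low against WT low density and 0.85 in Rho0 low against WT high density, and quantile normalization within the S. cerevisiae genes gave 0.45, 0.44 and 0.86. The medians of all genes shifted to -0.40, 0.94 and 0.48 with the spike-ins and to -0.05, -0.01 and -0.11 with equal S. cerevisiae medians. Setting the S. pombe medians equal gave 17 ribosomal protein genes higher and 49 lower in Rho0 low against WT low density, against 2715 and 1087 of all genes. Without WT high density replicate 3 the median of the ribosomal protein genes was -0.32 in WT low and -0.67 in Rho0 low against WT high density.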

How the data were processed

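The deposited table holds log2 signals for 10928 probe sets on 15 arrays. The authors made these deposited log2 values with RMA and Affymetrix Expression Console, per the submitters' processing notes, whose versions are not given in the sources used here. Cells had been lysed in TRIzol and 100 ng of total RNA labelled with biotin, per the labels' protocols. Replicates are biological, per the labels. The array annotation named 1 gene for 7244 probe sets, several for 1 and none for 3683. Of these 5498 named an S. cerevisiae gene of the RefSeq table R64, which gave 5449 genes after 1 probe set was kept per gene. Coordinates are left out, as the labels give no build. There were 0 columns left unused.

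The limma package (3.58.1, under R 4.3.3) fitted 3 group means to all 15 arrays (lmFit, eBayes, 12 residual degrees of freedom). The Benjamini-Hochberg adjustment ran over 5449 genes, or over 52 pairs for A minus B differences, and a gene or pair was called at an adjusted p under 0.05. Alternatives were another scaling of the arrays, a smaller or weighted set of arrays, a replicate block, a trend and robust fit, treat, and other probe sets. The number of arrays limits the precision. The members and gene lists were chosen with earlier results of these data known. Genes named are, per comparison, the 5 most raised and 5 most lowered members among those called without overlap of the groups, the stalk genes, the extremes of the single-copy genes, the 5 pairs with the largest unequal change, and called list genes with a change of at least 2-fold. FHL1 was added outside this rule. Genes named for their probe sets, neighbours or opposite calls were picked with their values in view, and 1 pair among them is not reported here. Where the lower mean was at or under background, the fold is "at least" the ratio to that level.

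On simulated data for WT low against WT high density (5449 genes), 48% of changes of 0.5, 94% of changes of 1 and 100% of changes of 2 and 3 on the log2 scale were recovered, with 5.52% false calls. Of 52 simulated pairs, 100% of changes of 1 were recovered. The simulated noise was independent between genes and arrays, all pairs had the same spread, and far fewer genes were changed than were called in the data. These rates therefore need not hold for the data. Replicate numbers were checked for pairing: deviations of same-numbered arrays correlated between -0.053 and 0.367, and 7 of 15 arrays matched their own number best, so numbers were not taken as pairs.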

Additional observations from a re-analysis of the deposited data

Results flagged for a closer look

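In 14 of 111 groups of 5 values tested, 1 array lay far from the other 4 relative to the range of the group; chance alone gives this in about 1 of 20 groups. Rho0 low density replicate 1 was the highest array of its group for RPL38 (9.57, the next array at 8.87), RPL43A (10.36, next 10.04), RPL8B (7.83, next 7.71) and RPP2B (9.42, next 9.0). The same array was highest for the mean over all members (8.14, next 7.94). In Rho0 low density, replicate 3 was high for RPL23A (9.41, next 9.16). In WT low density, replicate 1 was high for RPL14A (9.66, next 9.40) and RPL8B (8.20, next 7.82), replicate 2 was low for RPP0 (10.28, next 10.51), and replicate 5 was low for RPS11A (6.34, next 7.14). In WT high density, replicate 3 was high for RPL14A (9.48, next 8.75), replicate 4 was high for RPL24B (4.96, next 4.48) and low for RPS2 (9.04, next 9.31), and replicate 2 was low for RPL8A (6.56, next 7.68). The cause of these values was not tested.

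The arrays also carry S. pombe probe sets, which the comparisons did not use. Of 14 such probe sets for ribosomal protein genes, 4 had a group mean above the background level. The highest means were 4.87 for rpl13, 2.99 for rps13, 2.79 for rps20 and 2.57 for rpl35b, all in WT low density. For rpl13 the mean was 3.91 ± 0.21 in Rho0 low density, 4.87 ± 0.46 in WT low density and 3.97 ± 0.16 in WT high density (SD, n = 5 each).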

How the results depend on the processing

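Counts of members called moved by over 1.5 times as follows. Against a 1.5-fold change (treat), 39 members passed in WT low against WT high density (4 higher, 35 lower; 20 pairs unequal), 11 in Rho0 low against WT low density (1 higher, 10 lower; 7 pairs) and 55 in Rho0 low against WT high density (1 higher, 54 lower; 20 pairs), since small changes cannot pass it. With the poly-A spike-ins 5 members were higher in the first comparison, 52 higher and 7 lower in the second, and 22 higher and 51 lower in the third. In the second comparison, higher calls numbered 21 with only the 10 arrays compared, 16 with array weights, 17 with equal S. pombe medians, 3 with equal S. cerevisiae medians and 14 without WT high density replicate 3; the cause was not tested. Its unequal pairs numbered 11 when adjusted as for all genes, a choice made after the data were seen.

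With 1 array left out at a time, members called ranged over 78 to 84, 62 to 72 and 90 to 97 in the 3 comparisons (higher 13 to 22, 7 to 14 and 9 to 15; lower 62 to 70, 53 to 60 and 79 to 88), and unequal pairs over 35 to 37, 31 to 35 and 35 to 37. With the replicate block, higher and lower members were 16 and 71, 12 and 56, and 11 and 87, and unequal pairs 37, 34 and 37, so no count moved by over 1.5 times. Among named members, RPS14A alone gained a call with the block, at -0.28 in WT low against WT high density and 0.34 in Rho0 low against WT low density, and none lost one. Of the changes of named members under the alternatives, 2046 kept their call, 35 no longer passed, 33 newly passed, and 1 turned and passed: RPP1B, not called at -0.03 in Rho0 low against WT low density, was at 0.65 with the spike-ins. Values that were called under neither setting could change sign.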
